A study of Mus musculus with 34 samples.

Results

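The 10 genes described here make bile acids, attach them to amino acids, move them and their lipid partners into bile, or control these steps. They were chosen by name and by no rule on measured values, but with earlier results of these data known. They are Cyp7a1, Cyp8b1, Cyp27a1, Baat, Nr1h4, Nr0b2, Abcb11, Abcb4, Abcg5 and Abcg8. Every probe outside the control spots whose RefSeq accession belongs to 1 of these symbols was taken, which gave 14 of the 41174 probes and 10 of the 16535 named genes on the array. Cyp7a1, Baat, Abcb4 and Abcg8 had 2 probes each, and the other genes had 1. For each gene the probe with the higher mean Cy5 signal is called the leading probe, and values are of that probe unless the second probe is named.

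Liver RNA was taken from 34 C57BL/6 mouse pups of both sexes on postnatal day (PND) 15, with 1 pup on each array. Control pups were labelled euthyroid. Dams of hypo pups drank water with 0.05% methimazole and 1% sodium perchlorate for 3 days. These agents stop the gland from taking up iodide and from making hormone. Hyper pups were injected with 50 µg of T4 and 5 µg of T3 per 100 g body weight, 4 h before collection, and hypo+ pups came from treated dams and were injected with 20 µg and 2 µg. Control and hypo pups were injected with saline. All dams drank water with sucrose, and by the study's methods the hypo+ pups were those whose serum T4 lay near or slightly above the control level, so that this group was selected on its hormone level. In the study's results, serum T4 of the hypo+ group was significantly above that of controls. There were 4 control, 4 hypo, 5 hyper and 4 hypo+ males. There were 4, 5, 5 and 3 females in the same order. Each value is the log2 ratio of the pup's RNA (Cy5) to a universal mouse reference RNA (Cy3) on the same array, and a difference of 1 on this scale is a 2-fold difference.

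Bile acids are made from cholesterol in hepatocytes. Cyp7a1, the rate-limiting 7α-hydroxylase, starts the classic route, Cyp27a1, the mitochondrial sterol 27-hydroxylase, serves the alternative route and side-chain oxidation, and Cyp8b1, the sterol 12α-hydroxylase, directs the product to cholic acid. Baat conjugates bile acids with taurine or glycine. The receptor FXR, encoded by Nr1h4, senses bile acids and induces SHP, encoded by Nr0b2, a repressor that acts on Cyp7a1 and Cyp8b1, and FXR also induces Abcb11. Abcb11 is the canalicular bile salt export pump, Abcb4 moves phosphatidylcholine into bile, and Abcg5 and Abcg8 form 1 heterodimer that exports sterols. In rodents Cyp7a1 is known to respond to thyroid hormone.

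RefSeq promoter windows of the mouse build GRCm38.p6 were used for 8 of the 10 genes, all but Cyp7a1 and Baat. In the 250 bases before the start, the letters TATAAA, the common TATA box, were sought on both strands, as was AGGTCA, the hexamer that nuclear receptors of the FXR and thyroid hormone receptor kind read. TATAAA was in 4 of the 9 windows of these genes and in 12.4% of all 32851 windows of this length, and AGGTCA was in 2 of 9 and in 14.0%. A pair of AGGTCA as a direct repeat with 4 bases between, a direct repeat with 1 base between or an inverted repeat with 1 base between was in 0 of 9, and in 0.0152%, 0.0335% and 0.00609% of all windows. A match is a description of the letters and not a binding site, and the windows of Abcg5 and Abcg8 overlap.

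The windows of Cyp8b1, Nr0b2 and Abcb11 are shown because they hold these letters and belong to a synthesis enzyme, its repressor and the bile salt pump whose values are set side by side later. Capitals mark TATAAA in the first 2 and the hexamer, read as TGACCT, in the third. The Cyp8b1 window is chr9:121916306-121916555 on the minus strand, with its TATAAA 31 to 26 bases before the start. The Nr0b2 window is chr4:133553126-133553375 on the plus strand, with its TATAAA 28 to 23 bases before the start. The Abcb11 window is chr2:69342617-69342866 on the minus strand, with the hexamer 56 to 51 bases before the start. The other hexamer of the set was in Nr1h4, 214 to 209 bases before the start. That window, chr10:89506659-89506908 on the minus strand, lies inside the gene (89454234 to 89533645). Its start is therefore not the outermost one of Nr1h4.
Cyp8b1: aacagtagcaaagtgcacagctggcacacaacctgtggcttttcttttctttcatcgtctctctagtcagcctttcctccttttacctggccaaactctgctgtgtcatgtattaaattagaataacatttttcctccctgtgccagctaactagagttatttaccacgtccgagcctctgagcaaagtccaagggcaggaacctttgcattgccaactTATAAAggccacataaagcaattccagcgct
Nr0b2: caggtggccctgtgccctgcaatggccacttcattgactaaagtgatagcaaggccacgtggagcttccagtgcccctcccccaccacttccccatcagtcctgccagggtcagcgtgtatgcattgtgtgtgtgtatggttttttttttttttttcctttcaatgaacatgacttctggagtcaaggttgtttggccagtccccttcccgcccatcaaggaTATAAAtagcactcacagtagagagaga
Abcb11: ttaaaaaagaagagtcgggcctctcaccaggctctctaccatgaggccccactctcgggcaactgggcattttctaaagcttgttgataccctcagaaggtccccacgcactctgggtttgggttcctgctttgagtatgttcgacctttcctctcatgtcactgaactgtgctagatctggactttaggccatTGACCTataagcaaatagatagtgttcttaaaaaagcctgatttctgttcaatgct

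Abcg5 and Abcg8 lie head to head on chromosome 17. Abcg5 starts at 84683011 on the minus strand and Abcg8 at 84683121 on the plus strand. The 109 bases between the starts, chr17:84683012-84683120, are shown on the plus strand because both genes share them. RefSeq gives Abcg8 another start at 84676302, inside Abcg5, for which this layout does not hold. Capitals mark the only TATAAA in it, read here as TTTATA, which lies 31 to 26 bases before the start of Abcg8 and 84 to 79 bases before that of Abcg5.
Abcg5 to Abcg8: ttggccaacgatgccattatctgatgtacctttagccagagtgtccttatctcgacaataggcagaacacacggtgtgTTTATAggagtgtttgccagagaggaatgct

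All 14 probes gave a Cy5 signal above the limit set by the negative control spots on 34 of 34 arrays, and none was saturated. The Cy3 signal of the reference was weaker. It was well above background, by the scanner software's flag, on 31 arrays for Cyp7a1, 18 for Cyp8b1 and 0 for the second probe of Baat, and on 32 or more for the other probes except the second of Cyp7a1 (20). All 5 hepatocyte markers on the array were present in every pup. The summed Cy5 signal of 7 pancreatic acinar markers had a median of 2382 over all arrays and reached 66063 and 64168 in 2 control males, 12096 in 1 control female and 4813 in 1 hypo+ female, and 5 of the 7 were present on every array. Of the marker lists of bile duct, macrophage, endothelial, stellate, erythroid and intestinal cells, 1 gene was called in any comparison, Vil1 in hypo+ against hypo averaged over the sexes (0.46, limma adjusted p = 0.0447). In that comparison 3.07% of all probes were called. Dio1, Thrsp and Me1 were used as a check of thyroid state. The deiodinase Dio1 fell in hypo pups by 1.46 in males and by 1.77 in females on the log2 scale (limma adjusted p = 0.0124 and 0.00923). Thrsp was -1.55 and -1.48 there (limma adjusted p = 0.358 and 0.0768), and Me1 was -0.42 and -0.46 (0.468 and 0.109). In hyper pups none of the 3 was called within a sex. Averaged over the sexes, all 3 were called in hypo pups and only Me1 in hyper pups. In whole liver, fewer cells of a type and less RNA per cell cannot be told apart. The labels give no litter. The first 2 digits of the animal numbers gave 20 inferred litters, of which 14 held more than 1 pup and all 14 held both sexes, and p-values treat these pups as separate.

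Within each sex, none of the 14 probes passed an adjusted p of 0.05 in limma (Benjamini-Hochberg over all 41174 probes). In males, 0 of 14 were called in hypo against control, where 0.0971% of all probes were called, 0 in hyper against control (0.0753%), 0 in hypo+ against control (0.0267%) and 0 in hypo+ against hypo (0.369%). In females, 0 of 14 were called in each comparison, where the shares of all probes were 0.155%, 0.158%, 0.0219% and 0.556% in the same order. At an unadjusted p under 0.05 the counts were 2, 1, 1 and 2 in males, where 5.2%, 2.97%, 7.56% and 9.18% of all probes were past it. In females they were 3, 0, 0 and 3, where the shares were 4.72%, 6.16%, 4.79% and 7.76%. The comparisons of the 3 treatments share the control pups, and the last shares the hypo and hypo+ pups.

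When both sexes were fitted together and the difference was averaged over them, 2 calls were made. Cyp27a1 fell in hypo pups relative to controls, the only probe of 14 called in that comparison (1.09% of all probes were called). Cyp7a1 was higher in hypo+ than in hypo pups, again as 1 of 14 (3.07% of all probes). In hyper against control and hypo+ against control, 0 of 14 were called, with 0.848% and 0.746% of all probes, and 2 of 14 had an unadjusted p under 0.05 in each, with 7% and 10.8% of all probes past it. In hypo against control and in hypo+ against hypo 4 of 14 were past it, with 8.51% and 13.6% of all probes.

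Cyp7a1, the first enzyme of the classic route (chr4:6265612-6275632 in GRCm38.p6), varied widely among controls. In males the 4 controls gave 3.64, 3.98, 4.47 and 5.36, and the 4 hypo pups gave 3.54, 3.68, 3.84 and 4.35. In females the 4 controls gave 4.27, 4.68, 4.72 and 5.27, and the 5 hypo pups gave 3.56, 3.91, 3.92, 4.71 and 4.75. Of the hypo pups, 1 male and 3 females lay below all controls of their sex, and the groups overlapped in both sexes. The log2 fold-change was -0.51 (SE 0.30) in males and -0.56 (SE 0.27) in females, both with a limma adjusted p of 1. Averaged over the sexes it was -0.54, with a 95% interval from -0.97 to -0.10 and an adjusted p of 0.366.

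Hyper pups had high values of Cyp7a1. The 5 hyper males gave 4.71, 5.12, 5.30, 5.40 and 5.69, and the 5 hyper females gave 4.91, 4.95, 5.08, 5.40 and 5.89. In each sex all 5 hyper pups lay above 3 of the 4 controls, and the highest control lay among them. The difference from control was 0.88 (SE 0.29, limma adjusted p = 0.946) in males and 0.51 (SE 0.27, adjusted p = 0.859) in females, and 0.70 (95% interval 0.27 to 1.12, adjusted p = 0.152) averaged over the sexes. Where hyper and control pups of 1 sex shared a slide, the hyper pups were higher in 8 of 8 such pairings, by 0.04 to 1.47. With the slide as a random block the averaged difference was 0.72 and passed the test (adjusted p = 0.0358), and without 1 control male, the pup at 5.36, it was 0.86 (adjusted p = 0.0222). By the scanner software's ratio, which subtracts background, it was 0.31 (adjusted p = 0.862). In the Cy5 channel alone it was 0.82 and called (adjusted p = 0.0447).

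The 4 hypo+ males gave 4.04, 4.74, 4.78 and 4.83 for Cyp7a1, and the 3 hypo+ females gave 4.83, 5.04 and 5.58. All 4 hypo+ males lay within the range of the control males. Relative to control the averaged difference of hypo+ pups was 0.33 (95% interval -0.14 to 0.79, limma adjusted p = 0.688). All 3 hypo+ females lay above all 5 hypo females, and in males 3 of 4 hypo+ pups lay above all 4 hypo pups. Cyp7a1 in hypo+ pups exceeded that in hypo pups by 0.74 (SE 0.30, limma adjusted p = 0.437) in males and by 0.98 (SE 0.29, adjusted p = 0.219) in females. Averaged over the sexes it rose by 0.86, or 1.82-fold (SE 0.22, 95% interval 0.41 to 1.32, adjusted p = 0.0262). The call was kept with the inferred litter as a random block (0.87, adjusted p = 0.029) and was lost with scan day as a block (0.67, adjusted p = 0.0731). It was also lost without any 1 of 7 pups, with values of 0.75 to 0.89 and adjusted p of 0.0519 to 0.0874. These were hypo males 723 and 891, hypo female 316, hypo+ males 454 and 761 and hypo+ females 543 and 601. On shared slides Cyp7a1 was higher in hypo+ than in hypo pups in 3 of 4 pairings of the same sex, with differences between -0.31 and 1.67. Hypo+ male 363 and hypo+ female 601 were on a slide with no pup of another treatment. The second Cyp7a1 probe, at a lower signal, gave 0.50 (adjusted p = 0.118) for the same difference. That probe was -0.56 in hypo pups, 0.44 in hyper pups and -0.06 in hypo+ pups relative to controls, and all 4 hypo males lay below all 4 control males (unadjusted p = 0.0161, adjusted p = 0.713).

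Cyp27a1, the 27-hydroxylase (chr1:74713148-74737897), was lower in hypo pups. Control males gave 2.31, 2.37, 2.41 and 2.60, and hypo males gave 1.54, 1.82, 1.82 and 2.37. Control females gave 2.35, 2.41, 2.72 and 2.74, and hypo females gave 1.97, 2.05, 2.07, 2.25 and 2.38. Of 9 hypo pups, 7 lay below every control of their sex, and 1 of each sex reached the lowest controls. The log2 fold-change was -0.53 (SE 0.19, limma adjusted p = 0.701) in males and -0.41 (SE 0.12, adjusted p = 0.417) in females. Averaged over the sexes Cyp27a1 fell by 0.47 on the log2 scale, or 1.39-fold (95% interval -0.71 to -0.23, adjusted p = 0.0411).

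On shared slides the hypo pups were lower for Cyp27a1 in 7 of 7 pairings of the same sex, with differences between -0.83 and -0.28. With the slide as a fixed block the averaged difference was -0.50 (adjusted p = 0.000363). With the inferred litter as a random block it was -0.47 and no longer called (adjusted p = 0.0574). The call was also lost when 1 of 13 pups was left out, with values between -0.49 and -0.41 and adjusted p between 0.051 and 0.115. These were control males 391, 522, 832 and 881, hypo males 311, 576 and 891, control females 394 and 523, and hypo females 316, 575, 721 and 743. Without the 4 arrays with high pancreatic acinar signal, of which 3 were controls, it was -0.49 (adjusted p = 0.152). The 7 acinar markers had a median of -1.42 in the same comparison, with 0 called and 7 at an unadjusted p under 0.05. With normexp background correction the difference of Cyp27a1 was -0.29 (adjusted p = 0.519).

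In injected pups Cyp27a1 overlapped the control range of 2.31 to 2.74. Hyper males gave 2.23, 2.31, 2.39, 2.82 and 3.04, hyper females gave 2.50, 2.61, 2.80, 2.87 and 2.90, and the averaged difference was 0.16 (SE 0.12, limma adjusted p = 0.945). Hypo+ males gave 1.70, 2.31, 2.32 and 2.36, and hypo+ females gave 2.51, 2.60 and 3.02. All 3 hypo+ females lay above all 5 hypo females, while the hypo+ males overlapped the hypo males and 1 of them, at 1.70, lay below every control. The difference of hypo+ from hypo was 0.57 (SE 0.13, adjusted p = 0.076) in females, 0.28 (SE 0.19, adjusted p = 0.726) in males and 0.43 (SE 0.12, adjusted p = 0.0536) averaged. With the slide as a random block the averaged difference was 0.40 and was called (adjusted p = 0.0306), as it was with the slide as a fixed block (0.32, adjusted p = 0.0476) and with scan day as a block (0.43, adjusted p = 0.044). It was 0.22 with median centring (adjusted p = 0.853) and 0.27 by the scanner software's ratio (adjusted p = 0.632), and in females alone it was called with the slide as a random block (0.53, adjusted p = 0.042) and with scan day (0.58, adjusted p = 0.0421), while median centring gave 0.29 (adjusted p = 0.973).

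Cyp8b1, the 12α-hydroxylase (chr9:121914356-121916305), had its lowest mean in hypo+ pups in males (1.91) and in hypo pups in females (2.19). Control males gave 2.55, 2.55, 2.78 and 2.91, and hypo males gave 2.21, 2.25, 2.58 and 2.60. The 4 hypo+ males gave 1.57, 1.81, 1.91 and 2.35. All hypo+ males lay below all control males, and 3 of 4 lay below all hypo males. In females the controls gave 2.48, 2.67, 2.98 and 3.56, the hypo pups 1.66, 1.80, 2.06, 2.70 and 2.71, and the hypo+ pups 1.90, 2.70 and 3.07. These female groups overlapped.

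The difference of Cyp8b1 in hypo+ pups from control was -0.79 (SE 0.20, limma adjusted p = 0.381) in males and -0.37 (SE 0.32, adjusted p = 1) in females. Averaged it was -0.58 (95% interval -0.98 to -0.18, adjusted p = 0.191), and with the slide as a fixed block it was -0.74 and called (adjusted p = 0.0436). Under other processing it was smaller, at -0.33 by the scanner software's ratio (adjusted p = 0.525), -0.36 with normexp (adjusted p = 0.691) and -0.43 without the arrays rich in acinar signal (adjusted p = 0.597). In males alone the scanner software's ratio gave -0.26 (adjusted p = 0.882). In hypo pups the averaged difference was -0.51 (SE 0.18, adjusted p = 0.267). Hyper males ranged from 2.68 to 3.79 and hyper females from 2.73 to 3.60, with an averaged difference of 0.27 (SE 0.18, adjusted p = 0.925). On shared slides Cyp8b1 was lower in hypo+ than in control pups in 5 of 5 pairings and higher in hyper than in control pups in 8 of 8.

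**Figure D1:**
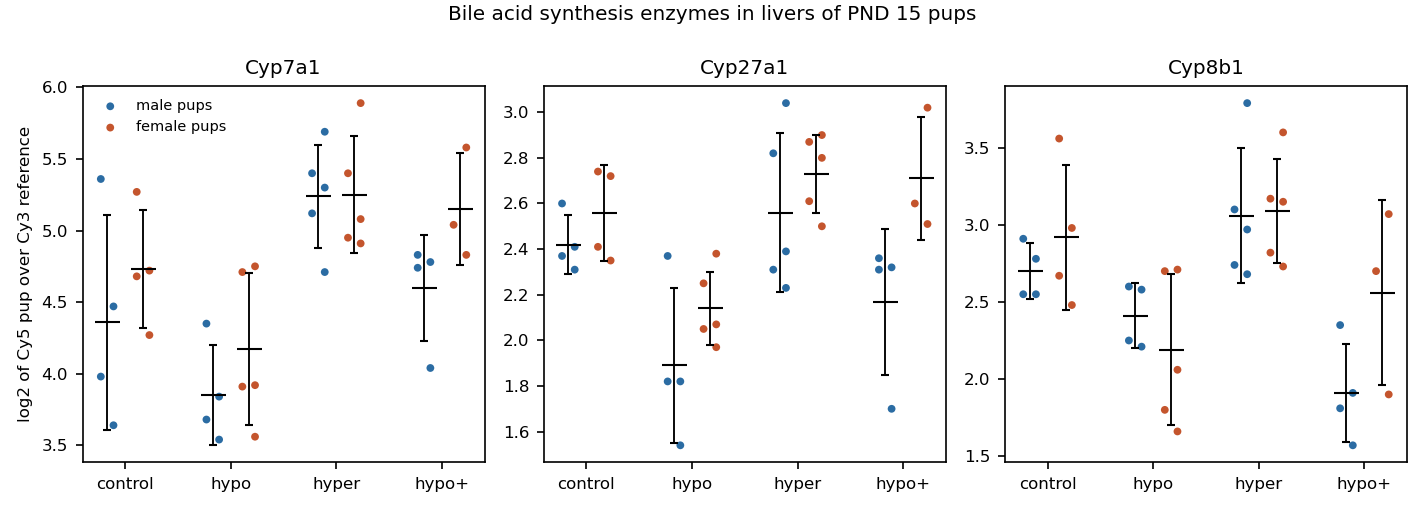
Log2 ratio of pup to reference RNA for the leading probes of Cyp7a1, Cyp27a1 and Cyp8b1, with 1 point per pup, males in blue and females in orange, and the mean ± SD of each group in black. The hypo pups sit low for Cyp27a1, the hyper pups sit high for Cyp7a1, and the hypo+ males are lowest for Cyp8b1, between 1.57 and 2.35.

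All 4 probes of the 3 synthesis enzymes had negative averaged differences in hypo pups, between -0.56 and -0.47, and positive ones in hyper pups, between 0.16 and 0.70. The sign is a description, since the probes were measured on the same pups. No sex-by-treatment interaction was called for any of the 14 probes or for any of the 41174 (limma, smallest adjusted p = 1). Among the members the difference between sexes for Cyp8b1 in hypo+ against hypo was 0.87 (female minus male, 95% interval 0.08 to 1.65), with an unadjusted p of 0.0312.

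Baat, the conjugating enzyme, did not pass the test in any comparison. Its 8 control pups ranged from 5.18 to 5.97 with a median of 5.34, and its hypo pups from 4.96 to 6.20 with a median of 5.44. Averaged over the sexes the leading probe differed from control by 0.08 for hypo, 0.00 for hyper and 0.20 for hypo+, and the second by 0.08, 0.13 and 0.28. The intervals of both probes over these comparisons reached from -0.35 to 0.74, and values within them are not excluded.

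The bile acid receptor gene Nr1h4 was not called in any comparison. Control pups ranged from 4.07 to 4.72, hypo pups from 4.13 to 4.79, hyper pups from 3.76 to 4.74 and hypo+ pups from 4.12 to 4.61. All 4 ranges overlapped. The averaged difference from control was -0.08 (95% interval -0.31 to 0.14) in hypo pups, -0.18 (-0.40 to 0.04) in hyper pups and -0.07 (-0.31 to 0.17) in hypo+ pups.

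Nr0b2, the repressor of Cyp7a1 and Cyp8b1, did not pass the test either. Its control pups ranged from 2.58 to 3.16, hypo pups from 2.65 to 3.66, hyper pups from 1.88 to 3.31 and hypo+ pups from 2.37 to 3.41. The averaged difference from control was 0.15 (95% interval -0.19 to 0.49) in hypo pups, -0.01 (-0.34 to 0.31) in hyper pups and 0.18 (-0.17 to 0.54) in hypo+ pups. In hypo+ against hypo pups it was 0.03 (-0.32 to 0.39), while Cyp7a1 differed by 0.86 in the same comparison.

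The canalicular transporters differed little between groups. Abcb11, the bile salt pump, ranged from 5.24 to 6.23 in control, 5.34 to 6.50 in hypo, 5.32 to 6.21 in hyper and 5.68 to 6.35 in hypo+ pups. Abcb4, the phospholipid flippase, ranged from 2.80 to 3.39, 2.84 to 3.47, 2.86 to 3.43 and 3.11 to 3.54 in the same order. Over the 6 probes of Abcb11, Abcb4, Abcg5 and Abcg8 the averaged differences from control were -0.13 to 0.15 in hypo and -0.06 to 0.09 in hyper pups. No interval of the 6 reached below -0.38 or above 0.50 in these comparisons, so that larger averaged changes lay outside them.

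In hypo+ pups all 6 export probes lay above control in the averaged fit, by 0.13 to 0.45, and none was called. These 6 probes were measured on the same pups, so their shared sign is a description. In this comparison the hepatocyte markers had a median of 0.15 and the other export genes 0.16, and the leading probe of Baat was 0.20. The median of all probes was -0.01. In females alone Abcg5 was -0.03. The largest of the 6 averaged differences was that of Abcg8. Control males gave 3.37, 3.49, 3.84 and 4.08 and hypo+ males gave 3.50, 4.28, 4.29 and 4.43 for its leading probe. Control females gave 3.44, 3.86, 4.04 and 4.39 and hypo+ females gave 3.96, 4.58 and 4.68. Groups overlapped in both sexes, and the averaged difference was 0.45 (SE 0.18, limma adjusted p = 0.307). The second Abcg8 probe gave 0.16 (SE 0.12) and Abcg5, the partner subunit, gave 0.13 (SE 0.16).

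**Figure D2:**
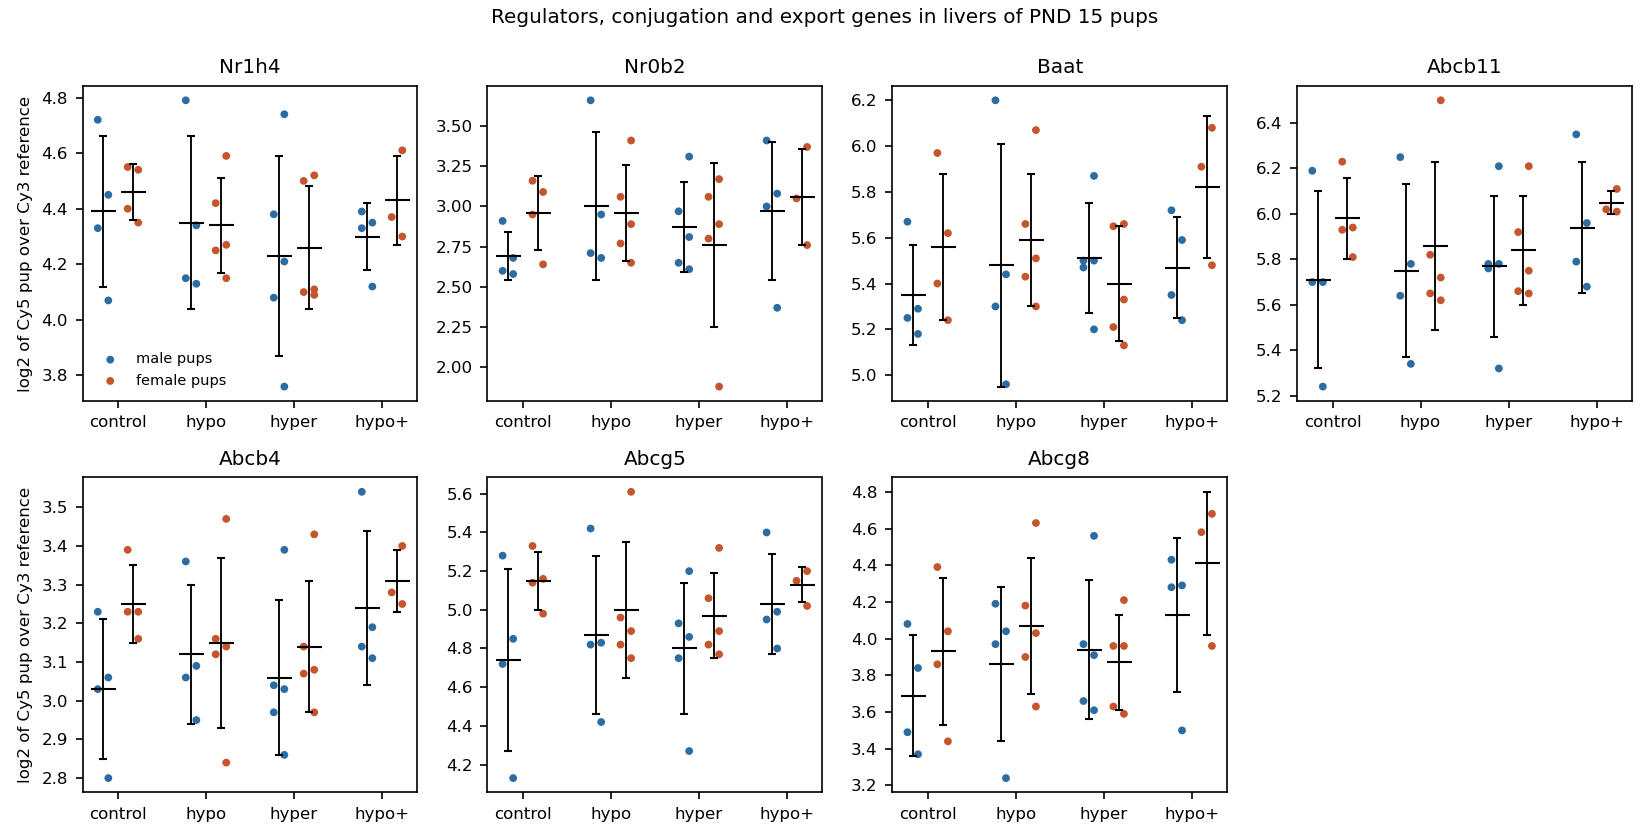
Log2 ratio of pup to reference RNA for the leading probes of Nr1h4, Nr0b2, Baat, Abcb11, Abcb4, Abcg5 and Abcg8, with 1 point per pup, males in blue and females in orange, and the mean ± SD of each group in black. The 4 treatments overlap for every gene, and single pups such as the hyper female at 1.88 for Nr0b2 lie apart.

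**Figure D3:**
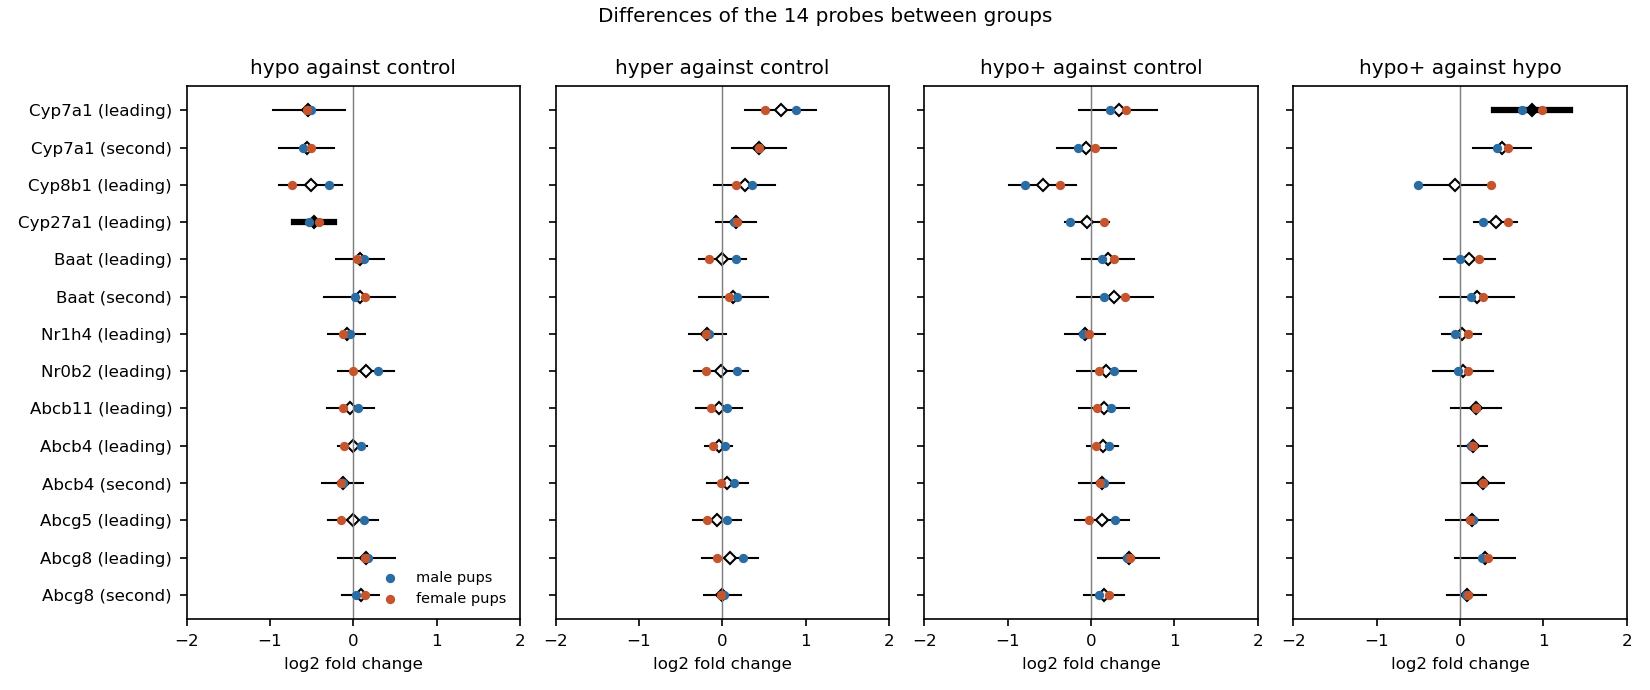
Log2 fold change of each of the 14 probes in 4 comparisons, with males in blue, females in orange and the average over the sexes as a diamond with its 95% interval. Filled diamonds with thick lines are the 2 averaged differences that passed the test, Cyp27a1 in hypo against control (-0.47) and Cyp7a1 in hypo+ against hypo (0.86).

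**Figure D4:**
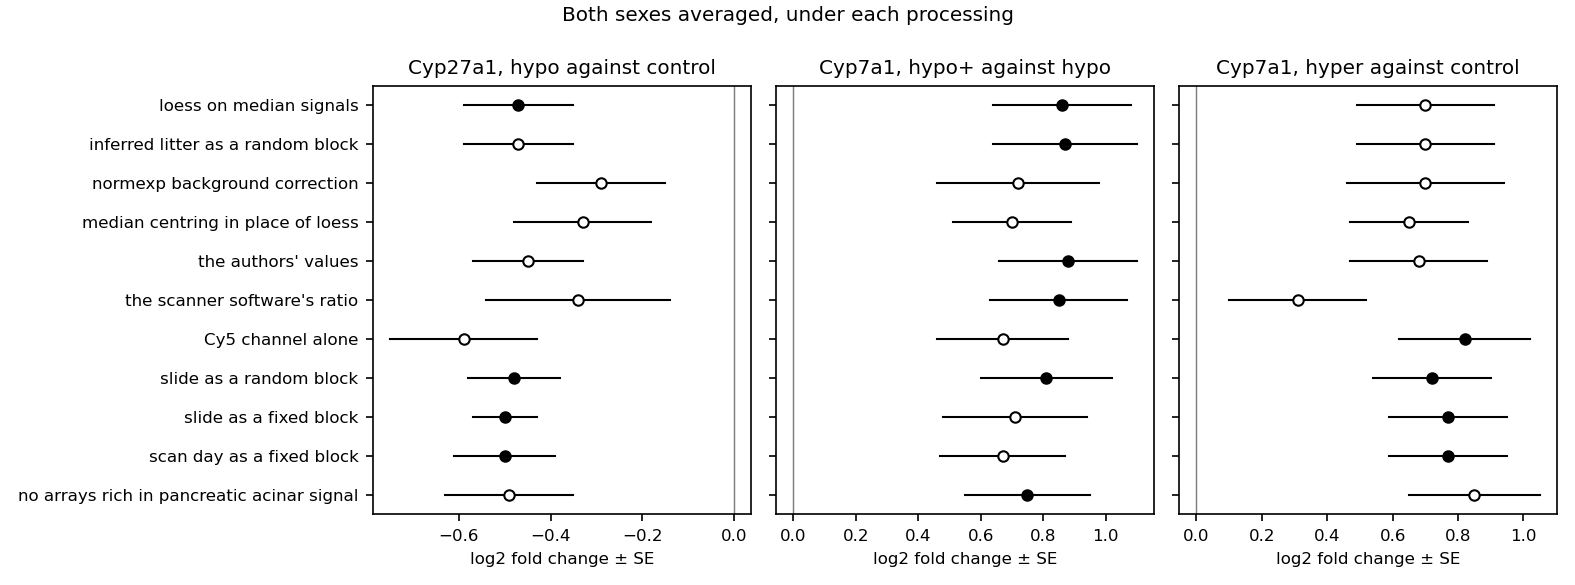
Averaged log2 fold change ± SE of Cyp27a1 and Cyp7a1 in 3 comparisons under 11 ways of processing, with filled points where the adjusted p was under 0.05. All values keep their sign, and the calls of Cyp27a1 in hypo pups come from the loess values alone or with slide or scan day as a block.

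Other genes of bile acid handling were counted from 4 lists. Within a sex, 0 of 15 other synthesis and conjugation genes, 0 of 8 other export genes and 0 of 16 other regulators were called in any comparison. Of 5 uptake genes on the array, 1 was called, Ephx1 in hypo females, where 0.155% of all probes were called. Ephx1, microsomal epoxide hydrolase, detoxifies epoxides and has been proposed as a bile acid carrier. It rose by 1.29 in hypo females (SE 0.22, limma adjusted p = 0.023), was 1.22 in hypo males (adjusted p = 0.434) and rose by 1.26 averaged over the sexes (adjusted p = 0.00104). In hypo+ pups the averaged rise was 1.13 (adjusted p = 0.0146). The call in hypo females was kept under 9 of 13 alternatives, with values between 1.23 and 1.43. It was lost without any 1 of 6 pups, control females 394, 831 and 882 and hypo females 316, 575 and 743, with values of 1.23 to 1.28 and adjusted p of up to 0.0915. The averaged call in hypo pups was kept under 10 of 10 alternatives, and that in hypo+ pups under 8 of 10 and lost without hypo+ female 601 (0.98, adjusted p = 0.0845).

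In the averaged fit 4 more genes of these lists were called, and they are named here after their values were seen. Of all probes, 1.09% were called in hypo, 0.848% in hyper and 0.746% in hypo+ against control in this fit. In hypo+ against hypo the share was 3.07%. Slc51b, the β subunit of the basolateral bile acid exporter, rose by 0.55 in hyper pups (SE 0.13, limma adjusted p = 0.0341) and by 0.62 in hypo+ pups (SE 0.14, adjusted p = 0.0325). It exceeded the hypo level in hypo+ pups by 0.73 (adjusted p = 0.00181). The leading probe of the other subunit, Slc51a, was above the negative control limit in Cy5 on only 2 of 34 arrays. The hyper call of Slc51b was kept under 6 of 10 alternatives, with values down to 0.27, and the hypo+ call under 5 of 10, with values down to 0.50. The hyper call was lost without any 1 of 10 pups (394, 498, 499, 522, 523, 585, 621, 783, 784 and 882, with values of 0.45 to 0.56). The hypo+ call was lost without any 1 of 7 (394, 522, 523, 543, 546, 601 and 763, 0.52 to 0.63). Abcc3, another basolateral exporter, rose by 0.60 in hypo pups (adjusted p = 0.0247) and by 0.69 in hypo+ pups (adjusted p = 0.0249), while its second probe gave 0.14 and 0.21 and was not called. Each of these calls of Abcc3 was kept under 7 of 10 alternatives, and with the slide as a fixed block the hypo+ value was 0.41 and not called. The hypo call was lost without any 1 of 7 pups (311, 316, 523, 576, 743, 831 and 832, 0.53 to 0.58) and the hypo+ call without any 1 of 5 (363, 523, 601, 761 and 831, 0.56 to 0.66). Acot8, a peroxisomal thioesterase, fell by 0.27 in hypo pups (SE 0.06, adjusted p = 0.0169), a call kept under 7 of 10 alternatives and lost without any 1 of 3 pups (391, 723 and 831, each giving -0.24). Foxo1, a transcription factor under insulin control, was higher in hypo+ than in hypo pups by 0.51 (SE 0.11, adjusted p = 0.00799), kept under 7 of 10 alternatives, with 0.30 in the Cy5 channel alone (adjusted p = 0.61). The median over the leading probes of the other export genes was 0.06 in hypo and 0.10 in hypo+ against hypo, and that of the other regulators was -0.02 and 0.04, where the median of all probes was 0.00 and -0.01.

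Over the 34 arrays and without removing group means, the leading probes most like Cyp7a1 among 12919 genes were those of Podn (Pearson's r = 0.80), Smcr8, Shmt1, Fzd5 and Pmm2 (r = 0.79 each). Cyp27a1 had r = 0.60 and rank 236, and Cyp8b1 had r = 0.53 and rank 402. Nr0b2 had r = -0.03. The arrays share slides, treatments and the reference RNA, so these values are a description, and under other normalizations r of the 5 most like genes ranged down to 0.36.

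Whether related genes varied together among pups of 1 group was examined in 7 pairs fixed by known relations. Each pup's deviation from its group mean was used over 34 pups, with 2-sided permutation p-values adjusted over the 7 pairs. Nr1h4 and Abcb11, the receptor and its target, gave Pearson's r = 0.67 (permutation p = 0.0002, adjusted p = 0.0014) and Spearman's rho = 0.57 (p = 0.0022, adjusted p = 0.0154). Nr0b2 and Cyp8b1, the repressor and an enzyme it acts on, gave a positive r of 0.50 (permutation p = 0.00459, adjusted p = 0.0101) and rho = 0.51 (p = 0.00617, adjusted p = 0.0216). Abcg5 and Abcg8, which share the 109 bases shown above, gave r = 0.52 (permutation p = 0.00578, adjusted p = 0.0101) and rho = 0.43 (p = 0.021, adjusted p = 0.0367). Nr0b2 and Cyp7a1 gave r = 0.07 (permutation p = 0.707, adjusted p = 0.707) and rho = 0.05 (p = 0.776).

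The remaining pairs lay between these. Nr0b2 with Abcb11 gave r = 0.55 (permutation p = 0.00188, adjusted p = 0.00658) and rho = 0.46 (p = 0.0122), and Nr1h4 with Nr0b2 gave r = 0.46 (p = 0.0121, adjusted p = 0.017) and rho = 0.40 (p = 0.035). Cyp7a1 with Cyp8b1 gave r = 0.36 (permutation p = 0.0504, adjusted p = 0.0588) and rho = 0.35 (p = 0.0696). Leaving out the 2 pups farthest from the median gave r between 0.03 and 0.70 over the 7 pairs.

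Among the pairs that passed the test, r was lower once batch means were removed. Removing them leaves less information to test with, so missing the test there does not show that a correlation is absent. With the mean of each slide also removed, r was 0.19 for Nr1h4 and Abcb11, 0.30 for Nr0b2 and Cyp8b1, -0.30 for Abcg5 and Abcg8 and 0.12 for Nr0b2 and Abcb11, and none of the 7 pairs passed the test. With the mean of each scan day removed the values were 0.26, 0.42, -0.16 and 0.14. The normalization mattered as well. With median centring in place of loess, r of Abcg5 and Abcg8 was -0.18, while in the Cy5 channel alone it was 0.74. For Nr1h4 and Abcb11, r was -0.23 in the Cy5 channel alone and 0.42 with median centring. Other probes gave correlations of this size as well, since 11.8% of 26571 present probes had an r of at least 0.5 in size with Abcb11, 10.2% with Abcg5, 7.07% with Nr1h4, 6.30% with Nr0b2 and 3.43% with Cyp7a1.

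**Figure D5:**
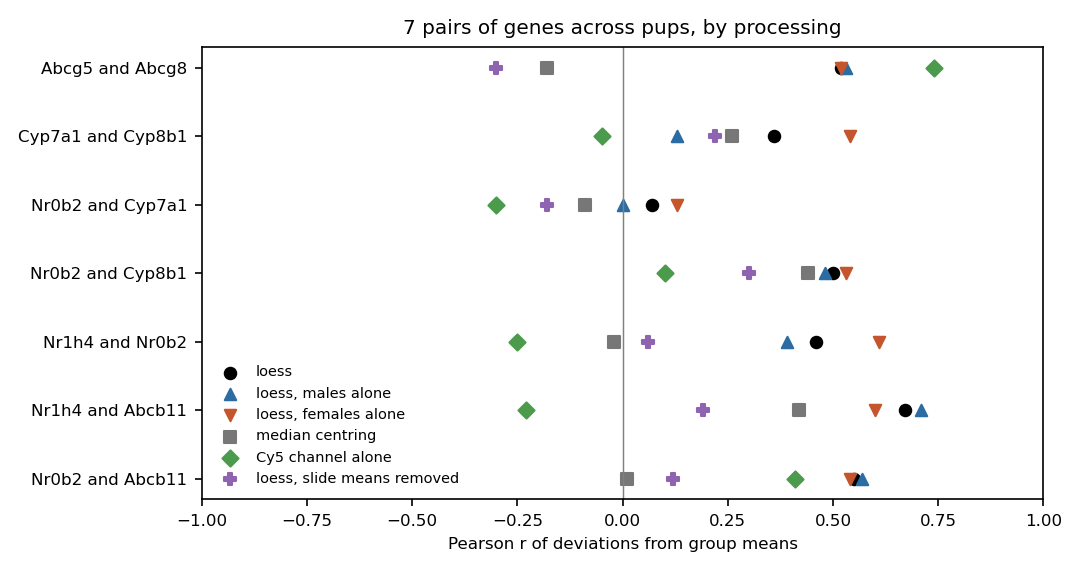
Pearson's r of the deviations from group means for 7 pairs of genes over 34 pups, by loess (black), loess in males or females alone, median centring, the Cy5 channel alone and loess with slide means removed. The black points of 5 pairs lie between 0.46 and 0.67, and the slide-removed points of all 7 pairs lie between -0.30 and 0.30.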

How the data were processed

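Samples were grouped by sex and treatment from their titles. Arrays were scanned with Feature Extraction. The deposited scanner files hold the median intensity of each channel and the software's log10 ratio of Cy5 to Cy3, and the authors also deposited log2 ratios, which their methods describe as loess-normalized in MAANOVA. The 2 arrays of each sex that the authors removed as outliers are not analysed here.

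Here the log2 ratio was computed from the deposited median intensities without background correction, after leaving out control and outlier spots (77 to 212 per array), and normalized by loess within arrays (limma 3.58.1, R 4.3.3). Median signals per array were 146 to 199 (Cy5) and 64.0 to 100 (Cy3). The limit from 153 negative controls was 85.0 to 106 (Cy5) and 19.8 to 50.2 (Cy3). Precision rests on the number of arrays. Each sex was fitted with its 4 groups in limma, with Benjamini-Hochberg adjustment over all probes and a threshold of 0.05. The fit was tested on data simulated for males only, with independent errors and no slide effect. Permutation tests of correlations used 100000 resamples, or 10000 under alternatives. Probes were named by RefSeq accession (16806 of 33541 systematic names matched).

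The members, the lists and the tests were chosen with earlier results of these data known. All probes of the 10 members were named, and other bile acid genes where called in at least 1 of the 8 comparisons. Slc51b, Abcc3, Acot8 and Foxo1 fall outside this rule and are named because they were called in the averaged fit. Alternatives were normexp background correction (offset 50), median centring, the authors' log2 values, the scanner software's log10 ratio, Cy5 alone, present probes only, slide, scan day or inferred litter as a block, only the 2 groups compared, both sexes in 1 fit, and each pup left out. Those of the averaged fit, other than the litter block, and the removal of batch means from the correlations were chosen after seeing the data.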

Additional observations from a re-analysis of the deposited data

Results flagged for a closer look

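Single pups lay apart from the rest of their group in 6 of 98 tests by Dixon's gap ratio at its 95% value. Each test took 1 probe in 1 group of 4 or 5 pups. The rate is near the 1 in 20 that chance gives, but the tests share pups and are not independent. The hypo+ male 546 was low for Cyp7a1, the rate-limiting enzyme, at 4.04, where the other hypo+ males lay between 4.74 and 4.83. The same pup was low for Cyp27a1 at 1.70, where the others lay between 2.31 and 2.36. The hypo female 721 was high for both Abcb11 at 6.50 and Abcg5 at 5.61. The hyper female 499 was low for Nr0b2 at 1.88, and the hypo+ male 761 was low for the leading probe of Abcg8 at 3.50. Without hypo+ male 546 both Cyp7a1 and Cyp27a1 were called in hypo+ against hypo averaged over the sexes.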

How the results depend on the processing

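Pups could not be paired by replicate number, because these are animal numbers that no 2 groups share. Pups on 1 slide were compared through the slide blocks. Within a sex, 0 of the 14 probes were called under most alternatives and 0 without any 1 pup (0 to 0). The exceptions were 1 in hypo against control of females with slide as a fixed block, and 1 in hypo+ against hypo of females with slide as a random block or scan day as a block. The average over the sexes gave 1 in hypo against control and 1 in hypo+ against hypo, the latter also 1 with the inferred litter as a block.

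In the averaged fit, the count in hypo against control was 0 with the litter block, normexp, median centring, the authors' values, the scanner software's ratio, Cy5 alone and without the arrays rich in acinar signal. In hyper against control it was 1 with Cy5 alone and with slide as a random or fixed block or scan day as a block. In hypo+ against control it was 1 with slide as a fixed block, and in hypo+ against hypo it was 0 with normexp and median centring and 2 with slide as a random block. Leaving out each pup gave 0 to 1 in hypo, 0 to 1 in hyper, 0 to 0 in hypo+ against control and 0 to 2 in hypo+ against hypo. The call of Cyp7a1 in hypo+ against hypo was also lost with slide as a fixed block (0.71, adjusted p = 0.127) and with Cy5 alone (0.67, adjusted p = 0.108). The only other value of a gene that turned its sign by more than its error was Abcb4 in hyper females, 0.13 with Cy5 alone. The causes were not tested.

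Among the correlations, the following r were no longer past the threshold or changed sign. In males alone they were 0.53 (Abcg5 and Abcg8), 0.48 (Nr0b2 and Cyp8b1), 0.39 (Nr1h4 and Nr0b2) and 0.57 (Nr0b2 and Abcb11), and in females alone 0.52, 0.53, 0.61 and 0.54 for the same pairs and 0.60 for Nr1h4 and Abcb11, with fewer pups in each. With median centring they were -0.18 (Abcg5 and Abcg8), -0.09 (Nr0b2 and Cyp7a1), 0.44 (Nr0b2 and Cyp8b1), -0.02 (Nr1h4 and Nr0b2), 0.42 (Nr1h4 and Abcb11) and 0.01 (Nr0b2 and Abcb11). With Cy5 alone they were -0.05 (Cyp7a1 and Cyp8b1), -0.30 (Nr0b2 and Cyp7a1), 0.10 (Nr0b2 and Cyp8b1), -0.25 (Nr1h4 and Nr0b2), -0.23 (Nr1h4 and Abcb11) and 0.41 (Nr0b2 and Abcb11). With slide means removed they were -0.30 (Abcg5 and Abcg8), -0.18 (Nr0b2 and Cyp7a1), 0.30 (Nr0b2 and Cyp8b1), 0.06 (Nr1h4 and Nr0b2), 0.19 (Nr1h4 and Abcb11) and 0.12 (Nr0b2 and Abcb11). With scan day means removed they were -0.16, -0.28, 0.42, 0.06, 0.26 and 0.14 for these pairs and -0.01 for Cyp7a1 and Cyp8b1. The Cy3 signal of Cyp7a1 and Cyp8b1 lay close to background on some arrays, which limits the precision of their ratios.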
